A study of Mus musculus with 2 samples.

Results

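The genes described here are the 7 mouse cytochrome P450 genes Cyp2a4, Cyp2a5, Cyp2a12, Cyp2a22, Cyp2b9, Cyp2b10 and Cyp2b13, out of 32285 genes in the count tables. They were found by symbol in the tables of both liver sections, and they were chosen by their CPM in these sections, by section and by lobule position, so these values are a description with no test. All 7 genes were in the tables, each under 1 identifier. The genes had 19671 UMIs in NCD and 67022 UMIs in HFD, and 6 of the 7 genes had at least 1 UMI in both.

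Cytochrome P450 enzymes of the Cyp2a and Cyp2b subfamilies are haem proteins of the endoplasmic reticulum of hepatocytes that hydroxylate drugs, plant compounds, steroids and bile acids. In mouse liver, Cyp2b10 is the classical target of the xenobiotic receptor CAR, whereas Cyp2a4, Cyp2b9 and Cyp2b13 are known as genes of the female liver that are kept low in males by the male pattern of growth hormone release. Drug-metabolizing P450 enzymes are in general most abundant around the central veins of the lobule.

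Spatial transcriptomics (ST) with Visium was performed on 2 liver sections, 1 from each diet group and each from a different mouse. In this assay, RNA from a frozen section is captured on barcoded spots that can each cover several cells, and a molecular tag, the UMI, lets every captured RNA be counted only 1 time. Both mice were male C57BL/6J, bought at 5 weeks of age and acclimated for 1 week. The NCD mouse received a normal chow diet, and the HFD mouse a high-fat diet with 60% fat. An intervention of 8 weeks, in which both groups were given distilled water by mouth, began after 14 weeks of diet. One mouse per group was picked at random for ST. The diet thus cannot be told apart from the mouse, its section or the capture area that holds the spots. The study's methods do not say whether the sections were on 1 slide. Intervals in brackets are exact at the 95% level and include counting error alone, except those of differences between gradients, which are normal approximations of the same error.

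The labels call the samples a haematopoietic stem cell line and immune cells, which the data go against. Hepatocyte markers (Alb, Apoa1, Ttr, Apoa2, Apoc3, Fgb and Trf) held 114168 CPM of the NCD section and 132817 CPM of the HFD section, where CPM is UMIs per 1000000 UMIs. The listed haematopoietic stem cell markers summed to 27.4 CPM in NCD and 37.8 CPM in HFD, most of it Hlf (21.2 and 28.7 CPM), which hepatocytes also express. The samples are therefore called liver sections here. Tissue covered 3692 spots of the NCD section, with a median of 4187.5 UMIs, and 3594 of the HFD section, with a median of 18549. The NCD section stands apart by its depth, with 840 spots below 1000 UMIs against 4. It also stands apart by its 1300 spots off tissue, which held 19.1% of all UMIs against 2.93% in the HFD capture area. The sections shared 3173 spot barcodes over tissue, since both capture areas carry the same grid of barcodes. Bile duct markers (Epcam, Krt7, Krt19, Sox9 and Spp1) were at 49.9 CPM in the NCD and 200.4 CPM in the HFD section, most of it Spp1 (43.5 and 187 CPM). Stellate cell markers were at 45.3 and 133 CPM, with Col3a1 at 14.1 and 93.8 CPM and Igfbp3 at 24.7 and 24.9 CPM. Macrophage markers were at 75.5 and 99.3 CPM. Of these, Adgre1 and Cd68 were higher in HFD, and Clec4f (54.0 and 49.2 CPM) and Spic (1.62 and 1.58 CPM) were not. Their part in the results below was not tested. In sections of bulk tissue, fewer hepatocytes and less RNA per hepatocyte cannot be told apart.

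The 7 genes lie in 1 cluster on chromosome 7, chr7:25897620-27037375 in GENCODE M21 on GRCm38, a stretch of 1139.76 kb with 15 protein-coding genes. Along the forward strand came Cyp2b10 (chr7:25897620-25926624), Cyp2b13 (chr7:26061497-26096197), Cyp2b9 (chr7:26173411-26210661), Cyp2a4 (chr7:26307169-26315088), Cyp2a5 (chr7:26835305-26843548) and Cyp2a12 (chr7:27029081-27037375). Cyp2a22 (chr7:26931631-26939384) lies on the reverse strand inside the span of the pseudogene Cyp2a21-ps. The antisense gene Gm42375 overlaps the start of Cyp2a4, and without the strand of the counting, which is not given in the sources used here, reads of the overlap cannot be told apart.

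Several of these genes are near copies of each other, which bears on how their counts can be read. The promoter stretches of the 2 closest pairs are shown because they show how little the members of a pair differ upstream. Each line holds the first 220 of the 250 bases before the RefSeq start, 5′ to 3′ on the strand of the gene (GRCm38.p6, forward strand), and capitals mark the bases that differ within the pair. The stretches are chr7:26173159-26173378 for Cyp2b9, chr7:26061245-26061464 for Cyp2b13, chr7:26306942-26307161 for Cyp2a4 and chr7:26835089-26835308 for Cyp2a5.
Cyp2b9: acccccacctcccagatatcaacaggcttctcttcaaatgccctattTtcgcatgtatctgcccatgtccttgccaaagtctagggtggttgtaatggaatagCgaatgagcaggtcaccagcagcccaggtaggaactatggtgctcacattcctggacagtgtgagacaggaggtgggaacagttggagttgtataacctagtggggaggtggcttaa
Cyp2b13: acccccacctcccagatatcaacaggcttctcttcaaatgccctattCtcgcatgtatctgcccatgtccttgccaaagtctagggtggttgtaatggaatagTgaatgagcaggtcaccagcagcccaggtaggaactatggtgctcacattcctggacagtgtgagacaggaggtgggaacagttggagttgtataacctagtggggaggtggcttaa
Cyp2a4: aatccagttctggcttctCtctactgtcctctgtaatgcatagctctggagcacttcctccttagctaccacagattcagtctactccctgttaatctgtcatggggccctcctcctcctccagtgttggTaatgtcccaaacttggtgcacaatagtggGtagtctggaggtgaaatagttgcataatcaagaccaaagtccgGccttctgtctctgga
Cyp2a5: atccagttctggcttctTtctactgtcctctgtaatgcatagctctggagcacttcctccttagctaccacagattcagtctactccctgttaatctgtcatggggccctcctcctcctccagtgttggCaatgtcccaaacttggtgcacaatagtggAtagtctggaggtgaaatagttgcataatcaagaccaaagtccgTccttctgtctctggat

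Over the full 250 bases, Cyp2b9 and Cyp2b13 shared 248, and their differences were T48C and C104T, counted from 1 at the first base shown, with the base of Cyp2b9 first. Cyp2a4 and Cyp2a5 aligned over 249 bases with an offset of 1 base and differed at 4, written C19T, T131C, G161A and G205T with the position and base of Cyp2a4 first. Cyp2a12 and Cyp2a22 were 89.96% identical over 239 aligned bases, and Cyp2b10 was 75.8% identical to Cyp2b9 over 240. Pairs of a Cyp2a and a Cyp2b gene were 54.2% to 65.1% identical.

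A set of 5 short motifs was searched on both strands in the 250 bases before the start, and in the same stretch of all 32851 promoters of the table. The TATA box TATAAA was found in the promoters of Cyp2a4, Cyp2a5, Cyp2a12 and Cyp2a22, beginning 28, 29, 39 and 28 bases before the start, and in 12.4% of all promoters. The C/EBP-type motif TTGCATAA was found in Cyp2a4, Cyp2a5 and Cyp2b10, at 70, 71 and 58 bases before the start, and in 0.694% of all promoters. The nuclear receptor core motif AGGTCA was found in Cyp2b9 and Cyp2b13, at 138 bases before the start in both, and in 14.02% of all promoters. The STAT5 motif TTCNNNGAA (7.02% of all promoters) and the forkhead motif TGTTTGC (4.30%) were in 0 of the 7 stretches. None of the matches overlapped a match of another motif. A match describes the letters only, and members of a pair share their matches because they share their sequence.

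The transcripts were also alike. The longest protein-coding transcripts of Cyp2a4 and Cyp2a5 were 98.3% identical over 1738 aligned bases, those of Cyp2a12 and Cyp2a22 96.7% over 1673, and those of Cyp2b9 and Cyp2b13 91.9% over 1848. The assay counts from the 3′ end. Over the last 500 bases, Cyp2a12 and Cyp2a22 were 95.0% identical (382 aligned bases) and Cyp2b9 and Cyp2b13 88.8% (472). The transcripts of Cyp2a4 and Cyp2a5 differ in length, with 1738 and 2013 bases. Their last 500 bases therefore need not match in position, and no identity is given for them. Of the 411 windows of 90 bases in the last 500 bases of each transcript, 10.5% of those of Cyp2a4 occurred unchanged in the transcripts of Cyp2a5 or Cyp2a21-ps. The share was 1.70% for Cyp2a5 and 1.95% for Cyp2a12, and it was 0% for the other 4 genes. The window of 90 bases is a setting, since the read length is not given in the sources used here. Counts of the paired genes are uncertain to the extent that reads of one can be assigned to the other.

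**Figure D1:**
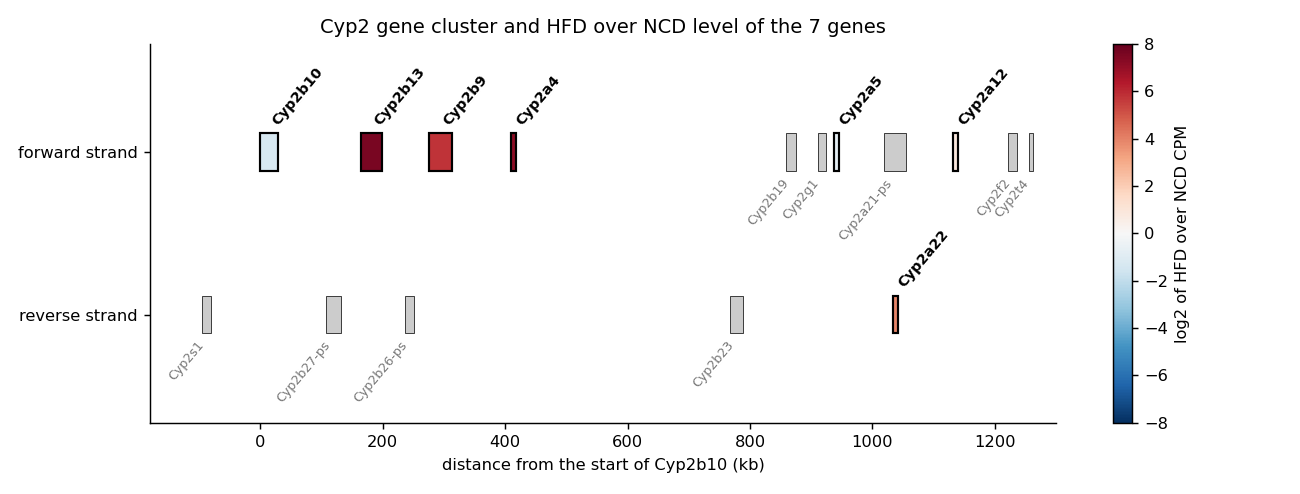
The Cyp2 gene cluster on chromosome 7, by distance in kb from the start of Cyp2b10, with genes of the forward strand above and of the reverse strand below. The 7 genes described are outlined and coloured by the log2 ratio of HFD to NCD CPM (for Cyp2b13, with 0 UMIs in NCD, the lower bound of 7.61), and other Cyp2 genes and pseudogenes are grey. Genes with high ratios stand next to genes with ratios near 0 or below it.

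The Cyp2a and Cyp2b genes moved in both directions between the sections. Cyp2a4, Cyp2a22, Cyp2b9 and Cyp2b13 were at least 2-fold higher in the HFD section, Cyp2b10 was at least 2-fold lower, and Cyp2a5 and Cyp2a12 moved by less than 2-fold. Thus 4 of 7 genes were higher by that rule, against 9.3% of the 10665 genes with at least 200 UMIs in both sections together, and 1 of 7 was lower, against 1.84%. All 7 genes passed that minimum, and Cyp2a4, Cyp2a22, Cyp2b9 and Cyp2b13 passed it only through their HFD counts. The median log2 ratio over all 10665 genes was 0.23. Because the genes were chosen with these values known, nothing is read from the shares.

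Cyp2b9, a P450 that is abundant in female liver, had 86 UMIs in NCD, or 2.96 CPM (2.37 to 3.66), and 11943 UMIs in HFD, or 166 CPM (163 to 169). The ratio was 55.9-fold, a log2 ratio of 5.81 (5.50 to 6.13), the 6th highest of the 10665 genes. Its neighbour Cyp2b13, also a gene of the female liver, had 0 UMIs in the NCD section, where the level of 3 UMIs is 0.103 CPM, and 1458 UMIs in the HFD section, or 20.2 CPM (19.2 to 21.3). It was at least 196-fold higher in the HFD section, taking 3 counts over the NCD section as the floor, and the lower limit of the exact interval of its log2 ratio was 7.31. Bounds by layer use the same floor of 3 counts, which is less strict than these intervals. These genes were thus at or near zero in NCD and plainly present in HFD.

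Cyp2a4, a steroid hydroxylase of the female liver, had 3 UMIs in the NCD section, or 0.103 CPM (0.0213 to 0.302), and 1052 UMIs in the HFD section, or 14.6 CPM (13.7 to 15.5). The ratio of 141-fold rests on those 3 UMIs, and its log2 interval was 5.59 to 9.42. Cyp2a22 had 67 UMIs in the NCD section, or 2.31 CPM (1.79 to 2.93), and 2524 UMIs in the HFD section, or 35.0 CPM (33.6 to 36.4). The ratio was 15.2-fold, a log2 ratio of 3.92 (3.57 to 4.30).

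Cyp2a12, a hydroxylase of steroids and bile acids, was at 253 CPM (247 to 258) in the NCD section and 455 CPM (450 to 460) in the HFD section. This was a 1.80-fold difference, a log2 ratio of 0.85 (0.81 to 0.89). Cyp2a5, the coumarin hydroxylase of mouse liver and counterpart of human CYP2A6, went the other way, from 414 CPM (407 to 422) in NCD to 237 CPM (233 to 240) in HFD. It was 1.75-fold lower, with a log2 ratio of -0.81 (-0.84 to -0.77). It passed the 2-fold mark under other scalings, with -1.01 when the median of ratios over all genes replaced the total and -1.15 per UMI of 6 hepatocyte reference genes, while averaging the CPM of single spots gave -0.46.

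Cyp2b10, the CAR target that is induced by phenobarbital, was low in both sections. It had 145 UMIs in the NCD section, or 4.99 CPM (4.21 to 5.88), and 139 UMIs in the deeper HFD section, or 1.93 CPM (1.62 to 2.28). It was 2.59-fold lower in HFD, with a log2 ratio of -1.37 (-1.72 to -1.03). Cyp2b10 therefore went against Cyp2b9 and Cyp2b13, the genes of its own subfamily.

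**Figure D2:**
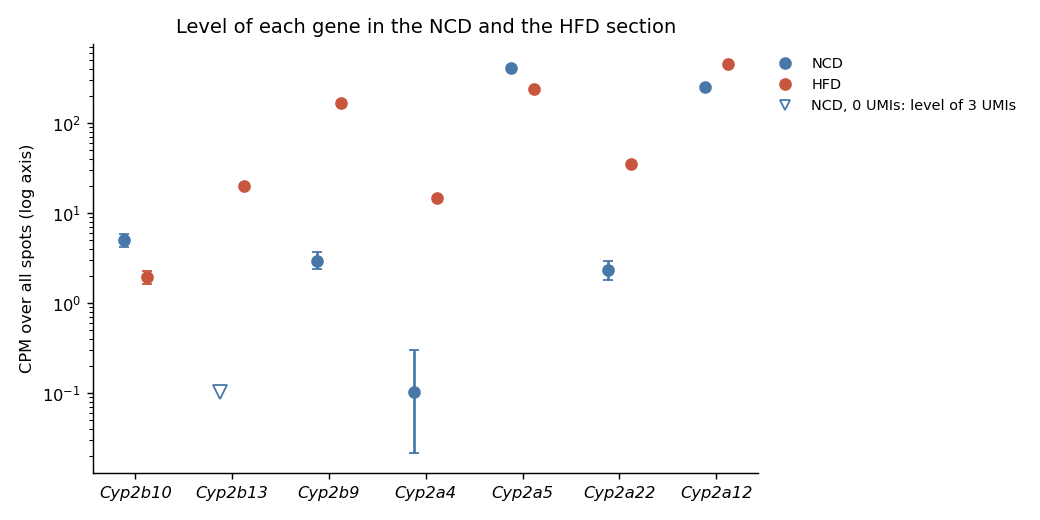
Level of each gene over all spots of the NCD (blue) and HFD (red) section, in CPM on a log axis, with exact 95% Poisson intervals (many are smaller than the points). The open triangle is the level of 3 UMIs for Cyp2b13, which had 0 UMIs in NCD. Cyp2b13, Cyp2b9, Cyp2a4 and Cyp2a22 are far higher in HFD, Cyp2a12 is higher, and Cyp2b10 and Cyp2a5 are lower.

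Summed over the 7 genes, the level was 677 CPM (668 to 687) in the NCD section and 929 CPM (922 to 936) in the HFD section (log2 ratio 0.46, 0.43 to 0.48). The sum changed far less than its parts. Of the NCD UMIs, 61.2% were of Cyp2a5 and 37.3% of Cyp2a12. Of the HFD UMIs, 49.0% were of Cyp2a12, 25.5% of Cyp2a5, 17.8% of Cyp2b9, 3.77% of Cyp2a22, 2.18% of Cyp2b13 and 1.57% of Cyp2a4. The share of Cyp2b10 was 0.737% in NCD and 0.207% in HFD. These are shares of UMIs and not of transcript molecules per length.

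At equal depth the same genes were found in more HFD spots. Each spot was randomly reduced to 3000 UMIs, and shallower spots were left out. In the remaining 2107 NCD and 3538 HFD spots, Cyp2b9 was detected in 0.902% (0.544 to 1.40) of NCD and 39.4% (37.8 to 41.0) of HFD spots. Cyp2a22 was detected in 0.617% (0.329 to 1.05) of NCD and 10.9% (9.85 to 11.9) of HFD spots. Cyp2b13 was detected in 0 of 2107 NCD spots and in 6.16% (5.39 to 7.01) of HFD spots. Cyp2a4 was detected in 0 of 2107 NCD spots and in 4.18% (3.55 to 4.90) of HFD spots. A count of 0 of 2107 spots has an exact upper limit of 0.175%. Detection at this depth was not compared with that of all genes, so these shares are a description only.

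Cyp2a12 was detected in 52.5% (50.3 to 54.6) of NCD and 73.0% (71.5 to 74.5) of HFD spots at this depth. Cyp2a5 was detected in 51.7% (49.5 to 53.8) of NCD and 41.7% (40.1 to 43.3) of HFD spots, and Cyp2b10 in 1.57% (1.08 to 2.19) and 0.480% (0.280 to 0.768). Without drawing down, Cyp2a5 was seen in 52.2% of NCD and 84.9% of HFD spots, so its order between the sections turned with depth. Unthinned shares of Cyp2b10, 3.76% and 3.81%, hid its lower level in HFD for the same reason.

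Spots off tissue held the genes too. These spots had a median of 3383 UMIs in the NCD capture area and 1175.5 in the HFD capture area, and where their RNA came from was not tested. Cyp2b9 was at 2.33 CPM (1.33 to 3.78) off tissue in NCD and 137 CPM (122 to 153) in HFD, close to its levels over tissue. Cyp2b13 had 0 UMIs off tissue in NCD and 42 in HFD. The spots off tissue thus carried the genes of their own section, and with their profile subtracted the log2 ratio was -1.05 for Cyp2a5 and -1.28 for Cyp2b10.

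To place spots in the lobule, spots of each section were ranked by the UMIs of 8 pericentral landmark genes as a share of the UMIs of these and 10 periportal landmark genes, and divided into 5 layers of equal spot number, from layer 1 at the periportal end to layer 5 at the pericentral end. None of the 7 genes was a landmark. In both sections 6 of 6 further pericentral genes were higher in layer 5 and 6 of 6 further periportal genes were lower, beyond counting error. The layers differed in depth, with medians of 4202 to 8871.5 UMIs per spot in NCD and 14677.5 to 27702.5 in HFD. Bile duct markers fell from 125 CPM in layer 1 to 11.7 CPM in layer 5 in NCD and from 401 to 65.5 CPM in HFD, and their part in the gradients was not tested. Of the 7 genes, 2 had the 200 UMIs needed in the NCD section (Cyp2a5 and Cyp2a12) and 6 in the HFD section (all but Cyp2b10).

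Along these layers the genes split into pericentral and periportal ones. In the NCD section 1 of the 2 genes was at least 2-fold higher in layer 5 than in layer 1 (3.1% of 7039 genes) and 0 were at least 2-fold lower (1.41%). In the HFD section 4 of the 6 genes were at least 2-fold higher in layer 5 (2.27% of 10054 genes) and 1 was at least 2-fold lower (1.74%). The median log2 ratio of layer 5 to layer 1 over all genes was 0.16 in NCD and 0.11 in HFD.

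Cyp2a5 had the steepest gradient of the genes counted in both sections. In NCD it was at 73.1, 111, 209, 453 and 1137 CPM in layers 1 to 5, a 15.5-fold rise and a log2 ratio of 3.96 (3.79 to 4.13). In HFD it was at 51.9, 105, 156, 251 and 727 CPM, a 14.02-fold rise and a log2 ratio of 3.81 (3.72 to 3.90). It ranked 9th of 7039 genes in NCD and 9th of 10054 in HFD. The gradients differed by -0.15 (-0.34 to 0.04), so a change of slope was not detectable in all UMIs. With each spot drawn down to 1000 UMIs, before spots were placed in layers, the values were 3.71 in NCD and 3.02 in HFD.

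Cyp2b13 had a gradient within counting error of that of Cyp2a5 in the HFD section, the only section with its UMIs. It was at 3.94, 8.25, 12.99, 19.9 and 65.3 CPM in layers 1 to 5, a 16.6-fold rise with a log2 ratio of 4.05 (3.72 to 4.40), the 3rd highest of 10054 genes. In CPM, more was gained from layer 4 to layer 5 than over the layers before, for Cyp2a5 in both sections and for Cyp2b13. Drawn down to 1000 UMIs, Cyp2b13 was at 3.003 on the log2 scale.

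Cyp2b9 had a shallower slope than Cyp2b13. In HFD it was at 106, 123, 163, 208 and 267 CPM, a 2.51-fold rise with a log2 ratio of 1.33 (1.25 to 1.41). In NCD it was at 0.981, 0.368, 2.49, 3.14 and 7.11 CPM, with 4 UMIs in layer 1 and 42 in layer 5, a log2 ratio of 2.86 (1.39 to 4.80). The gradient was lower in HFD by a log2 difference of -1.53 (-3.01 to -0.05), which rests on those 4 UMIs. Cyp2a22 was at 16.8, 29.2, 33.4, 43.1 and 63.6 CPM in HFD, a log2 ratio of 1.92 (1.74 to 2.11). Its NCD value from 4 and 29 UMIs was 2.32 (0.81 to 4.29). Drawing spots down to 1000 UMIs lowered the HFD log2 ratio to 0.28 for Cyp2b9, which was then below the 2-fold mark, and to 1.06 for Cyp2a22, so that 3 genes in place of 4 were at least 2-fold higher in layer 5.

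Cyp2a4 and Cyp2a12 ran the other way. Cyp2a4 in HFD was at 20.6, 15.2, 12.7, 11.1 and 9.54 CPM in layers 1 to 5, a 2.15-fold fall with a log2 ratio of -1.11 (-1.41 to -0.82). Its 3 NCD UMIs lay in layers 4 and 5. Cyp2a12 was at 339, 332, 247, 194 and 188 CPM in NCD, a log2 ratio of -0.85 (-0.96 to -0.73), and at 486, 501, 463, 433 and 371 CPM in HFD, a log2 ratio of -0.39 (-0.44 to -0.34). Its slope was flatter in HFD by 0.46 (0.33 to 0.58). The same drawing left 41 HFD spots with a Cyp2a4 UMI, turned its value to 0.33 and left that of Cyp2a12 in HFD at -0.02.

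Cyp2b10 had few UMIs in either section. In NCD it was at 2.21, 2.76, 6.01, 6.44 and 6.43 CPM, a log2 ratio of 1.54 (0.47 to 2.78). In HFD it was at 2.39, 1.83, 1.48, 2.16 and 1.51 CPM, a log2 ratio of -0.66 (-1.48 to 0.12). The NCD levels rose into the middle of the lobule, and the HFD levels did not differ between the ends beyond counting error.

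**Figure D3:**
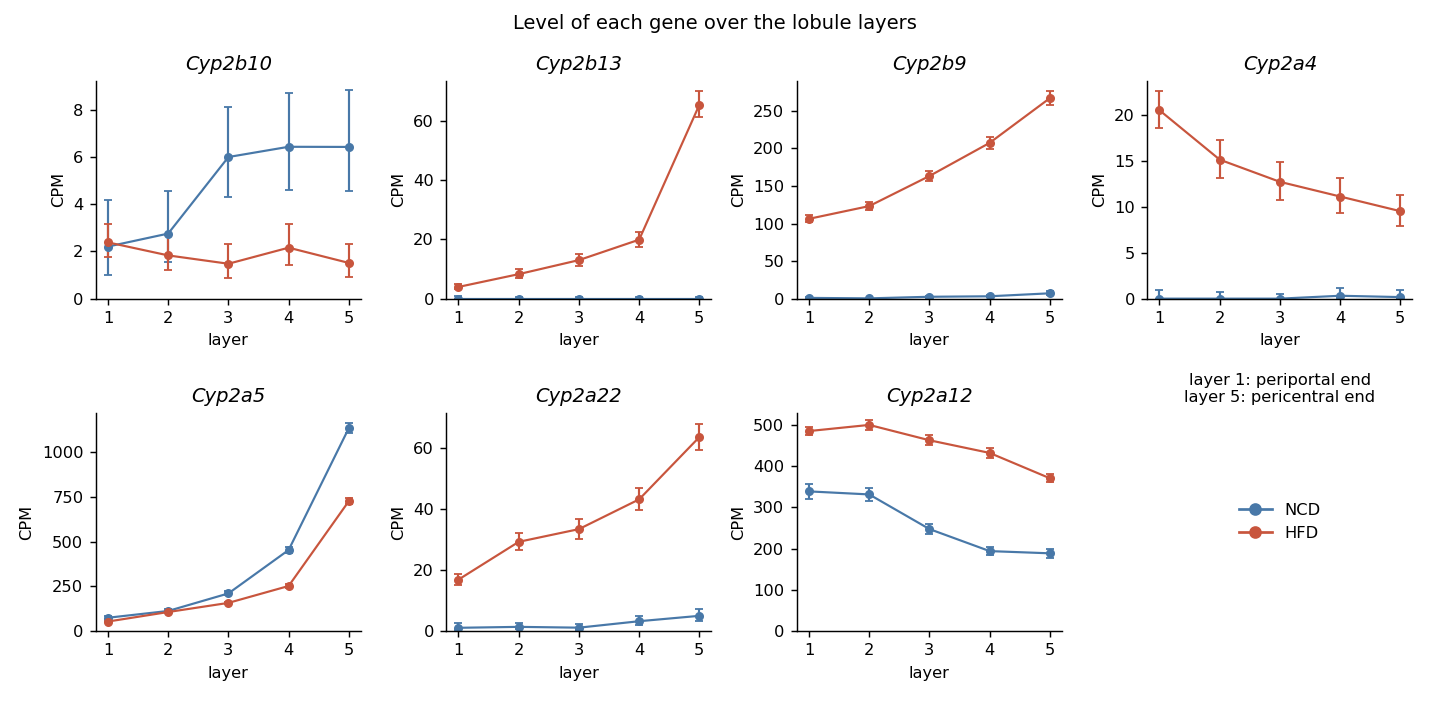
Level of each gene in CPM (linear axes from 0) in lobule layers 1 (periportal end) to 5 (pericentral end) of the NCD (blue) and HFD (red) section, with exact 95% Poisson intervals. Cyp2a5 and Cyp2b13 rise most steeply toward layer 5, where Cyp2a5 reached 1137 CPM in NCD and 727 CPM in HFD, and Cyp2a4 and Cyp2a12 fall.

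The higher HFD levels were seen in every layer. Cyp2b9, Cyp2b13, Cyp2a4 and Cyp2a22 were at least 2-fold higher in HFD in all 5 layers. The share of all genes that were so in every layer was not computed, and the genes were chosen with these values known. Nothing is therefore read from their number. For Cyp2b9 the ratio was 108-fold in layer 1 (log2 interval 5.401 to 8.64), 65.6-fold in layer 3, 66.1-fold in layer 4 and 37.6-fold in layer 5 (4.79 to 5.71). In layer 2 it was 335-fold, from 2 NCD UMIs (6.53 to 11.43). Cyp2a22 was 12.9 to 32.5-fold higher over the layers. Cyp2b13 was at least 5.36-fold higher in layer 1 and at least 129-fold higher in layer 5, with a floor of 3 counts in each NCD layer. Cyp2a4 was at least 27.9-fold higher in layer 1, at least 27.5-fold in layer 2 and at least 29.0-fold in layer 3, and its ratio was 35.5-fold in layer 4 from 2 NCD UMIs (log2 interval 3.27 to 8.21) and 56.3-fold in layer 5 from 1 (3.31 to 11.13).

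The lower levels in HFD depended on the layer. Cyp2b10 did not differ beyond counting error in layer 1 (log2 ratio 0.11, -0.93 to 1.32) or layer 2 (-0.59, -1.56 to 0.43). It was 4.06-fold lower in layer 3 (-2.02, -2.91 to -1.19), 2.98-fold lower in layer 4 and 4.25-fold lower in layer 5 (-2.09, -2.95 to -1.27). The difference between the sections was therefore seen in the middle and pericentral layers, where its NCD level was highest. A test of the difference between layers was not possible with 1 section per diet.

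Cyp2a5 was lower in HFD in layers 1, 3, 4 and 5, with log2 ratios of -0.50, -0.42, -0.85 and -0.64, and did not differ beyond counting error in layer 2 (-0.08, -0.22 to 0.06). Its value over all spots, -0.81, was beyond 4 of these 5. Layer 1, where Cyp2a5 is lowest, held 28.5% of the placed UMIs in HFD and 14.2% in NCD, and layer 5 held 18.3% and 20.6%. Cyp2a12 was higher in HFD in all layers, from 1.43-fold in layer 1 to 2.23-fold in layer 4.

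The ratio of near copies to each other changed along the lobule, which bears on the assignment of reads between them. In NCD there were 3 Cyp2a4 UMIs beside 12036 Cyp2a5 UMIs, 0.0249 per 100 (of both, 0.0249%, 0.00514 to 0.0728). In layer 5 of NCD, with the most Cyp2a5, there was 1 beside 6713. In HFD, Cyp2a4 made up 28.4% (26.1 to 30.7) of the UMIs of the pair in layer 1, 12.6% in layer 2, 7.53% in layer 3, 4.25% in layer 4 and 1.29% (1.08 to 1.54) in layer 5. The percentages of the layers at both ends of the HFD section differed beyond counting error, and the part of read assignment in these values was not tested.

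Cyp2b13 made up 3.58% (2.85 to 4.43) of the UMIs of Cyp2b13 and Cyp2b9 in layer 1 of the HFD section and 19.7% (18.5 to 20.9) in layer 5. In NCD it was 0 of 86, which allows up to 4.20% by the exact interval. Cyp2a22 made up 3.34% (3.004 to 3.71) of the UMIs of Cyp2a22 and Cyp2a12 in layer 1 and 14.6% (13.7 to 15.6) in layer 5 in HFD, and 0.289% (0.0787 to 0.737) and 2.54% (1.71 to 3.63) in NCD. In each pair, then, the share moved with the layer.

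**Figure D4:**
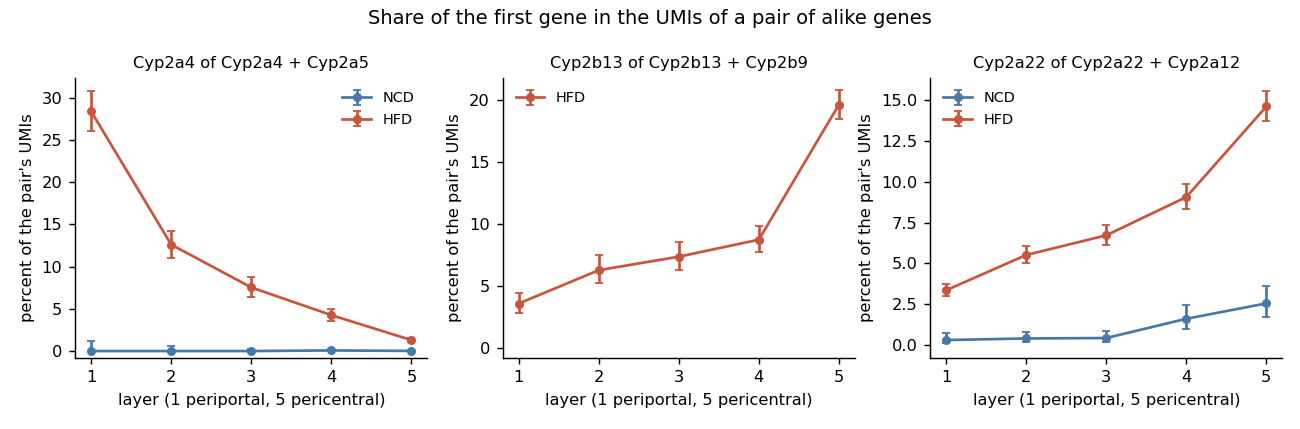
Share of Cyp2a4 in the UMIs of Cyp2a4 and Cyp2a5 (left), of Cyp2b13 in those of Cyp2b13 and Cyp2b9 (middle, HFD only, as NCD had 0 UMIs of Cyp2b13) and of Cyp2a22 in those of Cyp2a22 and Cyp2a12 (right), in percent by lobule layer, with exact 95% binomial intervals. The first share falls in HFD from 28.4% to 1.29%, and the other HFD shares rise.

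Among spots, Cyp2a5 was the most unevenly spread of the genes. At 3000 UMIs per spot, its variance over the mean was 2.42 in NCD and 2.06 in HFD, against medians of 1.05 and 1.02 for genes whose mean was within 1.5-fold of its own. In NCD 2 of 242 such genes and in HFD 2 of 386 were more uneven. The top 10% of spots, ranked by its UMIs, held 44.1% of its UMIs in NCD and 48.3% in HFD, against 30.4% and 35.3% for the median of these genes. Cyp2b13 was at 1.24 in HFD against 1.01, with 13 of 2186 genes above it, but at 1000 UMIs per spot it was near the median of such genes, with 1055 of 2200 above it. Cyp2b9 (1.06 against 1.02 in HFD), Cyp2a22 (1.01 against 1.01) and Cyp2a12 (1.07 against 1.04) were spread almost as evenly as the genes of like mean. Cyp2a4 was at 1.08 against 1.01 in HFD, with 61 of 2536 genes above it, and at 1000 UMIs per spot 1695 of 2595 were above it. The part of the lobule gradients in these values was not tested.

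In single spots, Cyp2a12 was found in 98.1% of all HFD spots and 58.7% of the shallower NCD spots. In spots with at least 3000 UMIs, its median was 230 CPM in NCD, with a 10th percentile of 0 and a 90th percentile of 503 CPM, and 439 CPM in HFD, with 215 and 690 CPM. Cyp2b9 in HFD had a median of 153 CPM, with 28.8 and 347 CPM as the same percentiles. The medians of Cyp2a4, Cyp2a22 and Cyp2b13 were 0 in both sections, so most spots had no UMI of them.

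A few HFD spots held many UMIs of Cyp2a4. Of its 1052 UMIs, 64 (6.08%) lay in 4 spots with 21, 18, 16 and 9, where 1.89 UMIs would be in proportion to their depth. These spots were picked by their Cyp2a4 UMIs after the values were seen, so their excess of Cyp2a4 follows from the choice. All 4 lay in layers 1 and 2, and they also held 28, 17, 28 and 20 UMIs of Cyp2a5. Together they were at 494 CPM of Cyp2a4 and 718 CPM of Cyp2a5, against 16.6 and 71.2 CPM in the other 1432 spots of layers 1 and 2. Cyp2a12 was at 563 CPM in these spots and 492 CPM in the others, Cyp2b9 at 100.3 and 113 CPM, and Cyp2b13 had 0 UMIs in these spots. Besides Cyp2a4, by which the spots were picked, Cyp2a5 was the only one of the 7 genes over 1.5-fold higher in them. The part of read assignment between these near copies was not tested. Without these spots the gradient of Cyp2a4 in HFD was -1.02 and its log2 ratio of HFD to NCD was 7.05.

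**Figure D5:**
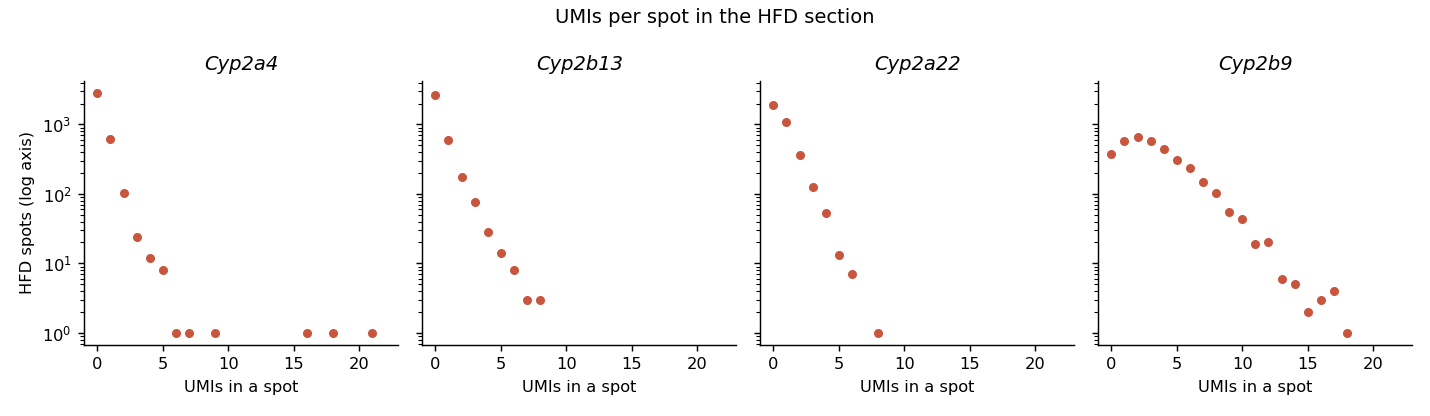
Number of HFD spots (log axis) by the UMIs they held of Cyp2a4, Cyp2b13, Cyp2a22 and Cyp2b9. The points of Cyp2a4 at 9, 16, 18 and 21 UMIs stand apart, while Cyp2b13 and Cyp2a22 end at 8 UMIs and Cyp2b9 at 18.

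Of the 21 pairs at 3000 UMIs per spot in HFD, 3 were detected together more often and 1 less often, by intervals that did not overlap. How many pairs of other genes this rule would call was not computed, so nothing is read from these counts. Cyp2b13 was found in 9.63% (8.17 to 11.2) of spots with Cyp2a5 and 3.68% (2.91 to 4.59) of the rest. Cyp2b9 was found in 45.6% (43.0 to 48.1) of spots with Cyp2a5 and 34.9% (32.9 to 37.1) of the rest, and Cyp2a22 in 13.1% (11.4 to 14.9) and 9.26% (8.04 to 10.6). All 3 pairs include Cyp2a5, and the intervals overlapped for the pairs among Cyp2b9, Cyp2b13 and Cyp2a22, such as Cyp2b9 in 40.1% (35.2 to 45.2) of spots with Cyp2a22 and 39.3% (37.6 to 41.01) of the rest.

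Cyp2a5 was found in 31.8% (24.4 to 39.9) of the 148 spots with Cyp2a4 and 42.1% (40.5 to 43.8) of the rest. In a second random draw it was found in 44.2% (35.8 to 52.9) and 42.6% (40.9 to 44.2), so this pair rests on the draw. The number of spots with both genes was close to what the shares within each layer give, at 1.09 times for Cyp2a5 and Cyp2b13 (142 spots), 1.04 times for Cyp2a5 and Cyp2b9 and 1.03 times for Cyp2a5 and Cyp2a22. In NCD, Cyp2a12 was found in 48.5% (45.5 to 51.5) of spots with Cyp2a5 and 56.8% (53.7 to 59.8) of the rest, and within layers the ratio was 1.01. Within layers, 0 of the pairs with an expected number above 0 differed from it by a Poisson interval, in either section. That interval is wider than the spread of such a number when the shares are fixed. Small differences could thus not be seen, and no conclusion is drawn from the 0. Spots cover several cells, so these values do not say whether genes share a cell.

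The genes whose profile was most like that of a member, by Pearson correlation of log2(CPM + 1) over the 10 layer values of both sections, are given as a description. The 10 values come from 2 libraries and share depth and layering. They were Slc5a6 (0.998), Dgat2 (0.998) and Atox1 (0.996) for Cyp2b9. For Cyp2b13 they were Hao2 (0.992), a peroxisomal hydroxyacid oxidase, Slco2b1 (0.991) and Cidea (0.989), a lipid droplet protein. For Cyp2a22 they were Hadh (0.996), Hspb1 (0.994) and Gps1 (0.994), and for Cyp2a4 Ttr (0.997), Saa1 (0.996) and Hsp90b1 (0.995). For Cyp2a5 they were Prodh (0.995), which starts proline breakdown, Lhpp (0.992) and Slc22a23 (0.991), for Cyp2a12 Sulf2 (0.990), Stap1 (0.987) and Plxdc2 (0.982), and for Cyp2b10 Socs7 (0.971), Dhx9 (0.965) and Hs3st3b1 (0.958). Among the members, Cyp2a22 and Cyp2b9 had the most alike profiles (0.983), and Cyp2a4 and Cyp2a5, the closest over whole transcripts, were at -0.23. Cyp2a4 was at 0.953 with Cyp2b9 and 0.850 with Cyp2b13, although in all HFD UMIs it fell toward the pericentral end while Cyp2b9 and Cyp2b13 rose. The correlation includes the difference between the sections, so a high value need not mean a like gradient along the lobule.

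Neighbouring genes and genes that act with these P450 enzymes were read from lists, and counts are over list genes with at least 200 UMIs. Of 5 neighbouring genes that passed, 1 was at least 2-fold higher in HFD (9.3% of all genes) and 0 were at least 2-fold lower (1.84%). The Cyp2 genes Cyp2g1, Cyp2b19 and Cyp2b23 had too few UMIs to pass. The P450 gene Cyp2f2, downstream of Cyp2a12, was at 511 CPM in NCD and 625 CPM in HFD, a log2 ratio of 0.29, and Itpkc was at 1.55 and 3.92 CPM (1.34, 0.88 to 1.83). The median of the 5 was 0.48, beside 0.23 over all genes.

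The next list held 13 genes, 12 nuclear receptors, transcription factors and coactivators of hepatocytes and the P450 reductase gene Por. Of these, 0 passed the 2-fold mark in either direction, beside 9.3% higher and 1.84% lower over all genes. Their median log2 ratio was 0.24. Nr1i3, which encodes CAR, was at 127 CPM in NCD and 121 CPM in HFD (-0.06, -0.12 to -0.01). Nr1i2, which encodes the pregnane receptor PXR, was at 29.0 and 38.7 CPM (0.42). Por, the reductase that gives electrons to P450 enzymes, was at 434 and 251 CPM (-0.79, -0.83 to -0.76). Levels of a receptor's RNA do not measure its activity.

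Other targets of CAR and PXR were mixed, with 2 of 21 at least 2-fold higher (9.3% of all genes), 7 at least 2-fold lower (1.84%) and a median of -0.27. Cyp2c54 was at 300 CPM in NCD and 5.80 CPM in HFD (-5.69), Cyp3a11 at 4791 and 1483 CPM (-1.69), Cyp2c29 at 758 and 241 CPM (-1.65) and Ces2a at 305 and 55.2 CPM (-2.47). Gstm3, a glutathione transferase, was at 16.8 and 67.1 CPM (1.99). Of 11 genes of the NRF2 response and haem synthesis, which also bear on Cyp2a5, 1 was at least 2-fold higher (9.3% of all genes). This was Srxn1 (19.3 and 48.3 CPM, 1.32). By the same mark 0 were lower (1.84%), and the median was 0.51. Alas1, the first enzyme of haem synthesis, was at 296 and 500 CPM (0.76).

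Genes that differ by sex in mouse liver are given because Cyp2a4, Cyp2b9 and Cyp2b13 are known for that difference, and both mice were male. Of 9 further female-biased genes that passed, out of 22 listed, 3 were at least 2-fold higher in HFD (9.3% of all genes) and 1 was lower (1.84%), with a median of 0.76. Hao2 was at 0.138 CPM in NCD, from 4 UMIs, and 6.21 CPM in HFD (5.49, 4.13 to 7.38), the organic anion transporter Slc22a27 at 1.96 and 19.9 CPM (3.34) and the steroid enzyme Cyp17a1 at 9.64 and 43.2 CPM (2.16). Cyp2c40 went against them, at 7.71 and 0.818 CPM (-3.24). Most listed female-biased genes thus had fewer than 200 UMIs in both sections together.

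Of 15 male-biased genes that passed, 11 were at least 2-fold lower in HFD (1.84% of all genes), 0 were higher (9.3%), and the median was -2.17, beside 0.23 over all genes. Hsd3b5, a steroid reductase of male liver, was at 61.4 CPM in NCD and 0.0832 CPM in HFD (-9.53), Slco1a1 at 128 and 0.194 CPM (-9.36), Cyp4a12b at 49.5 and 0.361 CPM (-7.10) and Serpina1e at 1566 and 118 CPM (-3.73). Mup20, a urinary protein, at 6542 and 11370 CPM (0.80), and Cyp2u1, at 19.3 and 24.7 CPM (0.36), were higher in HFD by less than 2-fold. C8a (-0.19) and Selenbp2 (-0.33) were lower by less than 2-fold. Of 10 genes of growth hormone signalling, 1 was at least 2-fold higher (9.3% of all genes) and 3 were lower (1.84%), with a median of 0.23. Socs2, a target of growth hormone, was at 21.4 and 3.29 CPM (-2.70), Cish at 17.4 and 7.72 CPM (-1.17), and the repressor Bcl6 at 2.76 and 7.93 CPM (1.53). Lists were written with earlier results of these sections known, so their counts are no independent evidence of a direction. The minimum was applied to the UMIs of both sections together, for the lists as for all genes. Among list genes at least 2-fold higher or lower, Hsd3b5, Slco1a1, Cyp4a12b, Susd4 and Cyp2c40 passed it only through their NCD counts. Hao2, Slc22a27, Bcl6, Itpkc and Gadd45b passed only through their HFD counts, and Onecut1 only through the sum of both sections. Listed genes that were low in both sections were left out. The counts and medians of the lists thus depend in part on this minimum.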

How the data were processed

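ST was measured in 1 liver section of the NCD group and 1 of the HFD group. The deposited tables hold UMI counts without normalization for each gene in each spot, which the authors produced with Space Ranger 1.3.1 per the file headers. The submitters' processing notes name mm10. Gene names and other deposited columns that hold no measurement were used as identifiers only. The strand setting and annotation of the counting are not given in the sources used here.

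Counts of the 7 genes were summed over the spots over tissue, 29037988 UMIs in NCD and 72118803 in HFD, and given as CPM. The members and all lists were chosen with earlier results of these data known. With 1 section per diet no test was made. Sums have exact Poisson, shares exact Clopper-Pearson and ratios exact conditional binomial intervals at the 95% level, and differences of log2 gradients have normal intervals on log counts, all of which cover counting error only, since UMIs of 1 section are not replicates. A count of 0 was read against a floor of 3 counts. The background was all genes that reached 200 UMIs, over both sections or, for a gradient, in its section, and 2-fold was the mark.

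Layers used spots with at least 1000 UMIs and 10 landmark UMIs. Spots were drawn down to 3000 UMIs with seed 1. Genes named beside the members are list genes with at least 200 UMIs and the 3 genes most like each member in profile, mitochondrial genes aside. Promoters are those of RefSeq on GRCm38.p6, in which all 7 genes matched by symbol, and positions and transcripts those of GENCODE M21. Python 3.11.15, numpy 2.4.6, pandas 2.3.3, scipy 1.17.1, Biopython 1.88 and matplotlib 3.10.9 were used, and the calculations were tested on simulated data. Alternatives changed the scaling, spot minimum, depth, layers, landmarks, fold mark and spots left out, and those chosen after seeing the data were the ones without the 4 spots rich in Cyp2a4 and with placed spots only. The images, the positions of spots and the single-cell libraries were not used here.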

Additional observations from a re-analysis of the deposited data

Results flagged for a closer look

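The gradient of Cyp2b10 along the lobule had opposite signs in the sections, although the HFD interval included 0. Its log2 ratio of layer 5 to layer 1 was 1.54 (0.47 to 2.78) in NCD, from 38 and 9 UMIs, and -0.66 (-1.48 to 0.12) in HFD, from 20 and 49 UMIs. The difference of HFD minus NCD was -2.20 (-3.49 to -0.91) by counting error alone, and it was not tested over animals. The signs were opposite with each setting that gave a value in both sections, at 1.198 to 2.49 in NCD and -0.73 to -0.23 in HFD. Drawing spots down to 1000 UMIs gave 2.59 in NCD and no value in HFD.

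The 7 genes were found in spots off tissue, which the comparisons do not use. There they summed to 568 CPM (551 to 586) from 3905 UMIs in NCD and 706 CPM (671 to 742) from 1536 UMIs in HFD, beside 677 and 929 CPM over tissue.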

How the results depend on the processing

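With 1 section per diet, depth and animals limit these results, and no section could be left out. No paired analysis was possible because each group holds 1 sample and the shared replicate number names 1 section per diet. None of the 7 genes changed direction between the sections under the 12 alternatives. The range of the log2 ratio was 4.97 to 7.72 for Cyp2a4, -1.15 to -0.46 for Cyp2a5, 0.50 to 0.89 for Cyp2a12, 3.58 to 5.06 for Cyp2a22, 5.46 to 6.67 for Cyp2b9 and -2.01 to -1.28 for Cyp2b10, and the bound for Cyp2b13 was 4.42 to 7.79. The lowest value of Cyp2a4 is also a bound, from 3000 UMIs per spot, where NCD had 0 of its UMIs. The highest values of Cyp2a22 and Cyp2b9 came without the 1% of spots with the most UMIs of the gene, which left out many of their few NCD UMIs. Over all genes the median was 0.23 with the total, 0.03 with the median of ratios and -0.11 with hepatocyte reference genes. The number at least 2-fold lower in HFD was 2 in place of 1, with Cyp2a5 added, with the median of ratios, with hepatocyte reference genes, after subtraction of spots off tissue and at a 1.5-fold mark, where 5 were higher. At 1.5-fold, 1 gene was lower in layer 5 of NCD in place of 0. In HFD, 0 in place of 1 were lower in layer 5 with 3 layers and after drawing down to 1000 UMIs, where Cyp2a4 turned to 0.33, Cyp2b9 was at 0.28, and 3 in place of 4 genes were higher. That drawing lowered the HFD gradients of Cyp2a5 to 3.02, of Cyp2b13 to 3.003 and of Cyp2a22 to 1.06, and gave 3.71 for Cyp2a5 in NCD. Pairs detected together more often in HFD numbered 3, and 1 at 1000 UMIs, 13 without drawing down and 0 within layers, where a Poisson interval was used. Pairs less often together in HFD numbered 1, and 0 in a second draw, at 1000 UMIs, without drawing down and within layers. In NCD, 9 pairs were more often and 0 less often together without drawing down, and 0 were less often together within layers. At 1000 UMIs, 0 in place of 1 gene of the HFD section was 1.5 times as uneven as genes of like mean. The cause of these shifts was not tested. The other counts stayed within 1.5 times of their values.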
